A study of Mus musculus with 3 samples.

Results

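The zinc-dependent histone deacetylases are the enzymes that remove acetyl groups from lysines with the help of a zinc ion, and their mRNA levels were followed here in 3 libraries of a mouse cell line. Members were taken by gene name from the deposited table of counts: Hdac1, Hdac2, Hdac3 and Hdac8 of class I, Hdac4, Hdac5 and Hdac7 of class IIa, Hdac6 and Hdac10 of class IIb, and Hdac11 of class IV. All 10 were among the 22976 genes listed, and all 10 passed the filter on low counts that left 13705 genes for testing. The remaining gene of the family, Hdac9, was not among the members chosen. It had 4 reads in the control and 3 and 0 reads in the clones, and it did not pass the filter.

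All 3 libraries came from NSC-34 cells, a hybrid line made by fusing mouse neuroblastoma cells with embryonic spinal cord cells rich in motor neurons. The control was 1 library of untreated cells labelled wild type (WT). The other 2 libraries, clone 1 and clone 2, were labelled WT but spontaneously resistant to PR20 and had been given 10 µM of it for 3 weeks (the protocol text repeats this dose for the control, whose own treatment label is none). PR20 is a synthetic proline-arginine dipeptide repeat peptide, a toxic product modelled on those translated from the expanded repeat of the C9ORF72 gene, and the study screened for compounds that limit such toxicity.

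Lysine acetylation loosens the hold of histone tails on DNA and offers a binding surface to activators, and deacetylases reverse it. Class I enzymes work mostly in the nucleus inside large corepressor complexes. Class IIa enzymes have little deacetylase activity of their own, bind MEF2 transcription factors, and leave the nucleus when kinases phosphorylate them and 14-3-3 proteins hold them. HDAC6 of class IIb acts in the cytoplasm on alpha-tubulin and other proteins, and inhibitors of zinc-dependent deacetylases are widely studied in neurons.

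The libraries held 11700755 gene reads in the control, 11389663 in clone 1 and 11307034 in clone 2, so that 3 reads corresponded to between 0.256 and 0.265 CPM, a unit that relates the reads of a gene to all gene reads of its library. Levels are given below as CPM scaled with TMM factors, a correction for differences in library composition. Differences are log2 fold changes of the clones against the control with a standard error (SE), tested with edgeR's quasi-likelihood F test and adjusted by the Benjamini-Hochberg method over all 13705 genes at a threshold of 0.05. The control has no replicate, so the spread came from the 2 clones alone and p-values assume that untreated cells vary likewise. The labels do not say whether the libraries came from separate cultures, and what differs between the groups is resistance, clonal origin and exposure to the peptide together. Neuronal identity also moved with the groups. All 7 tested genes of a list of 10 neuronal and neuroblast markers fell, with a summed level of 1601 CPM in the control and 676 and 618 CPM in the clones. Of its most abundant genes, the neuronal tubulin Tubb3 was at 778 CPM in the control and at 256 and 248 CPM in the clones, and the sympathetic factor Hand2 was at 409 CPM against 345 and 312 CPM. The motor neuron genes Chat and Mnx1 had few or no reads. Chat, the acetylcholine-making enzyme, had 7, 0 and 0 reads and Mnx1 had 1, 1 and 3 reads in the control, clone 1 and clone 2. Isl1, another gene of the list, had 72, 23 and 17 reads in the same order and was called lower by edgeR. Of 13 markers of fibroblast, glial, immune and endothelial cells, 11 were listed. Their summed level was 88.7, 77.2 and 94.1 CPM in the control, clone 1 and clone 2, with 7 tested, 0 called higher and 2 called lower; Pdgfra (51.7, 43.0 and 45.3 CPM) and Col1a1 (13.4, 13.98 and 23.3 CPM) led them, and the microglial and leukocyte genes Cx3cr1, Aif1 and Ptprc had at most 2 reads. The part of these marker differences in the results below was not tested.

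By edgeR with the filter on low counts, members of the deacetylase family were called in both directions. Hdac3, Hdac4, Hdac6 and Hdac7 were higher in the clones and Hdac2, Hdac5, Hdac8 and Hdac10 were lower. Hdac1 and Hdac11 passed the test in neither direction. DESeq2 called 3 members higher and 1 lower, leaving out Hdac5, Hdac6, Hdac8 and Hdac10, and it called 10.3% of all its tested genes higher and 10.1% lower. Without the filter edgeR called 0 members in either direction, and over all genes it called 0 higher and 4 lower. In bulk RNA, fewer cells that express a gene and less RNA per cell cannot be told apart. The summed level of all 10 genes was 809 CPM in the control and 817 and 827 CPM in clones 1 and 2. With 4 members called higher and 4 lower, 8 of 10 were called, where edgeR called 50.1% of all tested genes, 24.3% higher and 25.8% lower. The members' share lay above that background, although with 10 genes it rests on few of them. Members were chosen with earlier results of these data known, and the background was not matched for read depth. The share therefore cannot show a trait of the family. Both clones lay above the control for 4 members and below it for 4, against 44% and 44.5% of all tested genes, so this count was close to the background. The median log2 fold change was -0.05 over the members and 0.0022 over all tested genes. Of the members 3 of 10 differed by over 1.5-fold, Hdac3 and Hdac4 only just, against 28.4% of all tested genes, and the median size of the log2 change was 0.43 over the members and 0.33 over all tested genes.

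**Figure D1:**
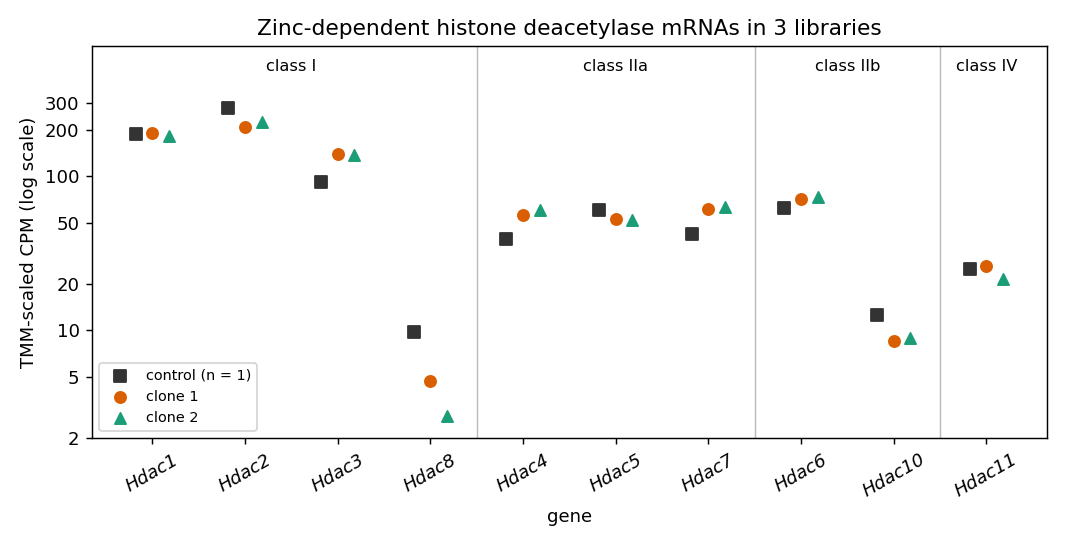
Level of each deacetylase gene in TMM-scaled CPM (log axis) in the control library and the 2 clone libraries, with each point standing for 1 library. Hdac1 and Hdac11 have the control between the clones, and for the other 8 genes both clones lie on the same side of the control, farthest for Hdac8.

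Within class I the 4 genes took different directions: Hdac3 rose, Hdac2 and Hdac8 fell, and Hdac1 passed no test. Hdac3, the catalytic subunit of NCoR corepressor complexes (chromosome 18, 37935844 to 37955016, minus strand), was at 91.8 CPM in the control and at 139 and 137 CPM in clones 1 and 2. The clones differed from each other far less than either did from the control. Hdac3 was 1.502-fold higher, with a log2 fold change of 0.59 (SE 0.063) and an edgeR adjusted p of 1.31e-06.

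Hdac2 is a subunit of the SIN3, NuRD and CoREST complexes and a close relative of Hdac1 (chromosome 10, 36974544 to 37001889, plus strand). It was at 277 CPM in the control and at 208 and 226 CPM in the clones, which averaged 217 ± 12.3 CPM (SD, n = 2). Both clones were low, clone 1 the more so. Hdac2 was 1.28-fold lower (log2 fold change -0.35, SE 0.058, edgeR adjusted p = 0.00011). Its log2 ratio of clone 2 over clone 1 was 0.12, with a 95% counting interval from 0.034 to 0.20, so the clones differed by more than the counting error of their reads.

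Hdac1 occupies the same complexes as Hdac2 (chromosome 4, 129516104 to 129542713, minus strand). It was at 189 CPM in the control and at 190 and 182 CPM in the clones, so the control lay between them. Its log2 fold change was -0.02 (SE 0.057, edgeR adjusted p = 0.77). A near-identical copy on chromosome 17, listed as Gm10093 and named here because it can share reads with Hdac1, had 329 reads in the control and 255 and 213 in the clones and was called lower (log2 fold change -0.39, SE 0.13, edgeR adjusted p = 0.0179). How the counting divided reads between the copy and Hdac1 is uncertain. With both genes' reads added, the log2 fold change was -0.06 and the edgeR adjusted p was 0.373.

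Hdac8 deacetylates the cohesin subunit SMC3 and, unlike the other class I enzymes, works outside the large corepressor complexes (chromosome X, 102284639 to 102505359, minus strand). It had 118 reads in the control and 53 and 31 reads in clones 1 and 2, or 9.82, 4.72 and 2.79 CPM. Per length of annotated exon, the gene had the lowest level of the 10 members in every library, and it had the largest difference between groups. It was 2.61-fold lower, with a log2 fold change of -1.38 (SE 0.26) and an edgeR adjusted p of 0.00032. Clone 1 alone was lower than the control by a log2 ratio of -1.04 (95% counting interval -1.55 to -0.58) and clone 2 by -1.79 (-2.44 to -1.24). The ratio of clone 2 over clone 1 was -0.74 on the log2 scale (-1.45 to -0.094). The size of the drop thus differed between the clone libraries by more than counting error, while its direction did not. Each clone is 1 library, so variation between cultures or preparations is not covered by this interval.

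Class IIa held 2 genes that rose by nearly the same factor and 1 that fell slightly. Hdac4, a regulator of MEF2-driven transcription known from muscle and nerve (chromosome 1, 91928779 to 92195699, minus strand), was at 38.9 CPM in the control and at 56.2 and 60.8 CPM in the clones. It was 1.501-fold higher (log2 fold change 0.59, SE 0.088, edgeR adjusted p = 4.16e-05). Hdac7, best known from endothelial cells and developing lymphocytes (chromosome 15, 97792664 to 97844502, minus strand), was at 42.0 CPM in the control and at 61.6 and 63.2 CPM in the clones. For both genes the clones lay close together and above the control. Both clones lay above the control for 44% of all tested genes. Hdac7 was 1.49-fold higher (log2 fold change 0.57, SE 0.082, edgeR adjusted p = 2.7e-05). By the annotation, 29 exonic bases of Hdac7 overlap Slc48a1 on the opposite strand, and Hdac4 overlaps Gm26720 by 3536 bases and Hdac11 overlaps Gm44002 by 594 and Gm14573 by 96, also on the opposite strand. Those 3 genes were not analysed here. Which strand was counted is not stated in the headers or labels, so reads of these members and of the overlapping genes cannot be told apart with certainty.

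Hdac5, the class IIa member studied in axon injury responses (chromosome 11, 102194432 to 102230166, minus strand), went the other way. It was at 60.4 CPM in the control and at 52.6 and 52.0 CPM in the clones. The difference was small, 1.16-fold lower (log2 fold change -0.21, SE 0.078, edgeR adjusted p = 0.0368). The balance within class IIa thus shifted away from Hdac5. There were 0.645 Hdac4 reads for each Hdac5 read in the control (95% counting interval 0.573 to 0.725), against 1.07 (0.953 to 1.20) in clone 1 and 1.17 (1.05 to 1.31) in clone 2. The corresponding ratio of Hdac7 to Hdac5 reads was 0.696 in the control and 1.17 and 1.22 in the clones. These ratios are taken within a library, so they do not depend on how libraries were scaled, and the lengths of the genes, which each ratio carries, are the same in all 3. They use the same reads as the calls above, so they are not separate evidence.

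The class IIb genes also diverged. Hdac6, the cytoplasmic deacetylase of alpha-tubulin that also binds ubiquitin and helps gather misfolded proteins (chromosome X, 7930120 to 7947889, minus strand), was at 62.5 CPM in the control and at 71.1 and 73.0 CPM in the clones. It was 1.15-fold higher (log2 fold change 0.20, SE 0.074, edgeR adjusted p = 0.0303), the smallest called rise of the family. Hdac10, a polyamine deacetylase (chromosome 15, 89123307 to 89128700, minus strand), had 150 reads in the control and 96 and 99 in the clones, or 12.5, 8.55 and 8.90 CPM. It was 1.43-fold lower (log2 fold change -0.52, SE 0.18, edgeR adjusted p = 0.0228). The ratio of Hdac6 to Hdac10 reads was 5.01 (95% counting interval 4.196 to 6.01) in the control, 8.31 (6.72 to 10.4) in clone 1 and 8.202 (6.65 to 10.2) in clone 2.

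Hdac11, the sole class IV member and an enzyme that removes long fatty acyl groups from lysines (chromosome 6, 91156665 to 91174692, plus strand), was at 25.1 CPM in the control and at 26.3 and 21.5 CPM in clones 1 and 2. The control lay between the clones, and the edgeR adjusted p was 0.668, the log2 fold change being -0.07 (SE 0.13). The clones themselves differed by a log2 ratio of -0.29 for clone 2 over clone 1, with a 95% counting interval from -0.54 to -0.040. Hdac2, Hdac8 and Hdac11 were the 3 members whose interval for the ratio between clones left out 0.

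These calls differ in how firmly they stand. In the authors' deposited table, made with DESeq2 on the same counts, 19.8% of 13906 genes with an adjusted p were called, and of the members Hdac2 (log2 fold change -0.36, adjusted p 0.00386), Hdac3 (0.58, adjusted p 0.000132), Hdac4 (0.58, adjusted p 0.0173) and Hdac7 (0.56, adjusted p 0.0155) were among them. In the authors' deposited table Hdac8 had a log2 fold change of -1.4 and an adjusted p of 0.0656, while Hdac5, Hdac6 and Hdac10 had adjusted p of 0.5, 0.515 and 0.458. Without the filter on low counts edgeR called none of the 10, with the lowest adjusted p at 0.0719 for Hdac3, although 7 of 10 had an unadjusted p under 0.05. This loss was not particular to the members. Over all genes that fit called 0 higher and 4 lower, although 7087 of 22976 had an unadjusted edgeR p under 0.05.

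GC boxes, bound by Sp1 and related factors, are common in promoters of broadly expressed genes. As examples, 4 RefSeq promoters of members called by edgeR are printed, Hdac4 and Hdac6 from the genes that rose and Hdac2 and Hdac5 from those that fell. Hdac5 and Hdac6 were not called by DESeq2. Hdac7 and Hdac8, which were also called by edgeR and have entries, are not printed and are counted below. Each run is the 250 bases before a RefSeq start in GRCm38.p6, 5′ to 3′ on the gene's strand, in lower case with GC boxes (GGGCGG or its reverse complement) in capitals. None of the 4 windows holds annotated exon bases.
Hdac4, chr1:92180342-92180591 (- strand): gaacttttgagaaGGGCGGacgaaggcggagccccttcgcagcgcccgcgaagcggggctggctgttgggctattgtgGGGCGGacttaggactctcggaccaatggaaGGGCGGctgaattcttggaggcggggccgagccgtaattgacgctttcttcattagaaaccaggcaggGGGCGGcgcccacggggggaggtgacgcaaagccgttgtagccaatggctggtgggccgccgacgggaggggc
Hdac6, chrX:7947890-7948139 (- strand): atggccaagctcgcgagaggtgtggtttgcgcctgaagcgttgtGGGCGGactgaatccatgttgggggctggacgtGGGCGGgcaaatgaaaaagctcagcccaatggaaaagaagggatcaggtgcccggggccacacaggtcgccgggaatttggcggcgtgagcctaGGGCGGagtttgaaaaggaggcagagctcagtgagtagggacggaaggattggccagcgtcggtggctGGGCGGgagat
Hdac2, chr10:36974294-36974543 (+ strand): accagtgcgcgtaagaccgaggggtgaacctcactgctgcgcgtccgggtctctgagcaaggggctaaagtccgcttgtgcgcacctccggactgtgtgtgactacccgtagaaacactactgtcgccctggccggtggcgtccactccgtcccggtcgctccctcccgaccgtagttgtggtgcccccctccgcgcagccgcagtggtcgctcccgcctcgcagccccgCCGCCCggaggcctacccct
Hdac5, chr11:102230173-102230422 (- strand): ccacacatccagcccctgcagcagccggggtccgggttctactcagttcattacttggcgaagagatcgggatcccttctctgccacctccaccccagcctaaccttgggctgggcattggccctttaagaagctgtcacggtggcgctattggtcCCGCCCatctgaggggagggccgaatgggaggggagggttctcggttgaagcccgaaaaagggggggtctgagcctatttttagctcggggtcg

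The 2 printed promoters of genes that rose held 4 GC boxes each and the 2 printed ones of genes that fell held 1 each. Over the 7 members with an entry the count did not follow direction. Hdac11, which passed no test, held 1, Hdac8, which fell, held 0, and Hdac7, which rose, held 0, 1, 0 and 0 in its 4 entries. Some of these windows hold annotated exon bases: 201 for Hdac8, 150 for Hdac11 and all 250 for the Hdac7 entry with 1 GC box. Their values are therefore not those of purely upstream sequence. RefSeq promoters were matched by symbol for 7 of the 10 members (Hdac2, Hdac4, Hdac5, Hdac6, Hdac7, Hdac8 and Hdac11). Of all 32851 mouse promoters of the same length, 32.7% held a GC box and 33.8% a CCAAT box (CCAAT), both searched on either strand. The GC content was 65.2% for Hdac4, 61.2% for Hdac6, 68.8% for Hdac2 and 60.8% for Hdac5, all above the median of 52.4% over all promoters, and Hdac8 was lower at 48.4%. CCAAT boxes numbered 2 in Hdac4, Hdac6, Hdac5 and Hdac8, 1 in Hdac11 and 0 in Hdac2. The Hdac4 start used by RefSeq lies 15358 bases inside the annotated gene, and reads counted per gene do not tell which start was used.

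Levels can be compared between genes only per length, here as CPM per kilobase of all annotated exons. In the control Hdac2 stood highest at 61.8, followed by Hdac1 at 54.8, Hdac3 at 22.6, Hdac6 at 10.7, Hdac5 at 6.88, Hdac11 at 6.53, Hdac7 at 6.22, Hdac10 at 3.69, Hdac4 at 2.46 and Hdac8 at 2.03. In the clones the top pair was the other way round, with Hdac1 at 55.0 and 52.8 and Hdac2 at 46.5 and 50.4. Hdac3 remained in the third place at 34.2 and 33.8 and Hdac6 in the fourth at 12.2 and 12.5. Hdac7 followed at 9.12 and 9.35, ahead of both Hdac11 at 6.83 and 5.58 and Hdac5 at 5.995 and 5.92, which overlapped. Hdac4, at 3.55 and 3.84, stood above Hdac10, at 2.53 and 2.63, and Hdac8 was last at 0.976 and 0.576. The order of neighbours depends on the length used: over the longest transcript the control held more Hdac1 (92.6) than Hdac2 (85.1), and Hdac4 (4.81), Hdac8 (4.33) and Hdac10 (4.31) were close together. Within the control, with 1 library, neighbours could not be compared with a spread.

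The make-up of the deacetylase mRNA pool therefore shifted at a nearly constant total. Of all member reads, 9716 in the control, 9177 in clone 1 and 9198 in clone 2, class I genes took 70.1% in the control (95% Clopper-Pearson interval 69.2 to 71.0) and 66.2% in both clones (65.2 to 67.2 in each). Class IIa genes took 17.5% in the control (16.7 to 18.3), 20.9% in clone 1 (20.03 to 21.7) and 21.3% in clone 2 (20.4 to 22.1). These intervals cover counting error only and the shares also carry gene length. Hdac2 gave up the most, from 34.2% of member reads in the control to 25.5% and 27.3% in the clones, and Hdac3 gained the most, from 11.4% to 16.9% and 16.6%. Hdac1 held 23.3%, 23.2% and 22.0% in the control, clone 1 and clone 2. For each Hdac2 read there were 0.332 Hdac3 reads in the control (95% counting interval 0.310 to 0.355), 0.665 in clone 1 (0.624 to 0.710) and 0.608 in clone 2 (0.570 to 0.648). The ratio of Hdac1 to Hdac2 reads was 0.682 (0.646 to 0.720), 0.911 (0.859 to 0.967) and 0.807 (0.761 to 0.856) in the same order. Both ratios restate the reads behind the calls. In summed CPM class I was at 567 in the control and 541 and 548 in the clones, class IIa at 141 and at 170 and 176, and class IIb at 74.98 and at 79.6 and 81.9.

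**Figure D2:**
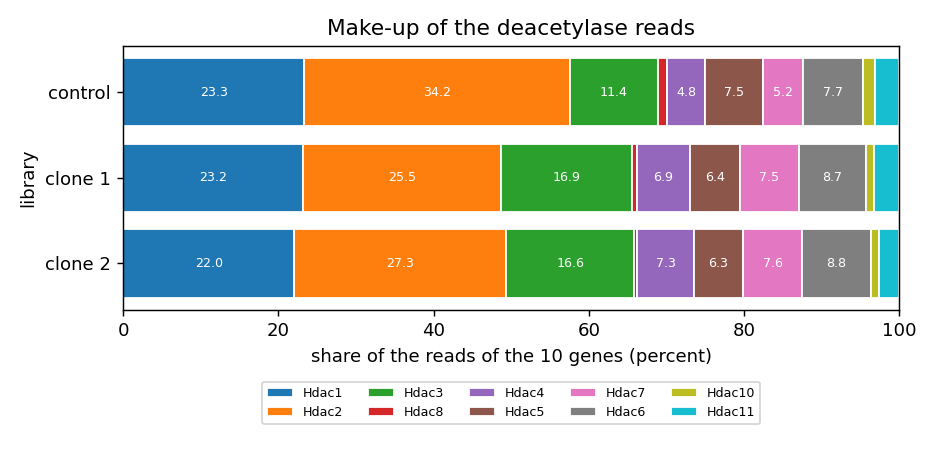
Share of each deacetylase gene in all member reads of a library, in percent, for the control and both clones as stacked bars from 0. The Hdac2 segment is widest in the control at 34.2%, and the Hdac3 segment is wider in both clones, at 16.9% and 16.6%, than in the control at 11.4%.

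The members were also set beside the other tested genes of their chromosomes, since the median change differed between chromosomes. On chromosome 18, which carries Hdac3, the median log2 fold change of the other 338 genes was 0.41, with 55.3% called higher and 11.8% lower, and Hdac3 stood above 68% of them. Its log2 fold change exceeded that median by 0.17. Hdac7 and Hdac10 both lie on chromosome 15, where the median over the other 549 genes was about -0.28, with 10.2% called higher and 49.5% lower for the genes around Hdac7. Hdac7 was higher than 96.4% of them, 0.85 above their median, and Hdac10 stood higher than 34.1%, 0.24 below it. Hdac6 and Hdac8 lie on the X chromosome, with a median of about -0.22 over 424 other genes: Hdac6 was higher than 79.5% of these genes and Hdac8 than 12.7%. Hdac4 stood higher than 91.5% of 761 other genes of chromosome 1, whose median was -0.02. DNA copy number was not measured, and the part of these differences between chromosomes in the members' changes was not tested.

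**Figure D3:**
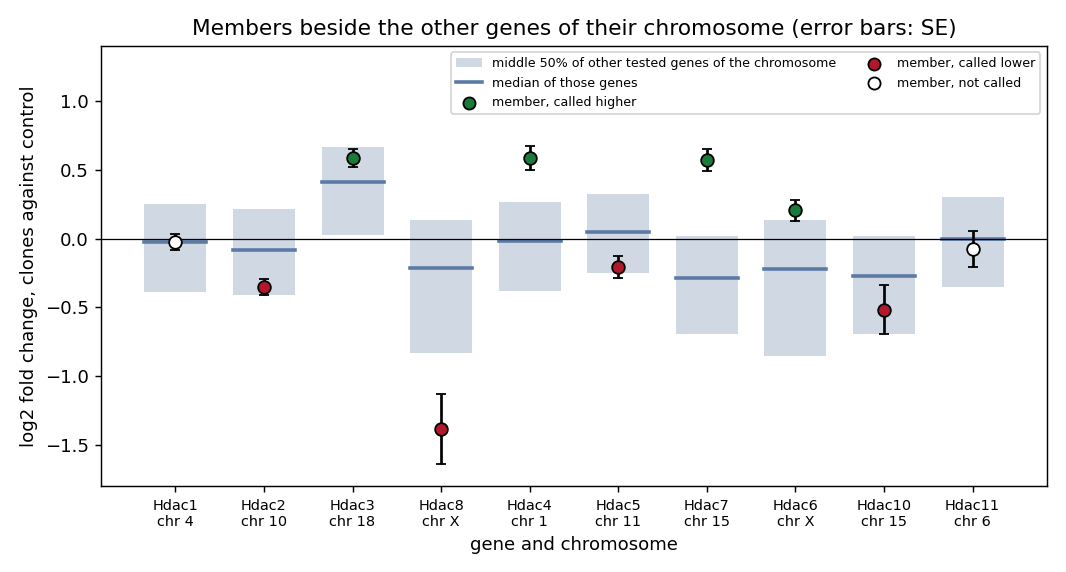
Log2 fold change of the clones against the control for each deacetylase gene (points, coloured by the edgeR call, with bars of 1 standard error), over the median (line) and middle 50% (box) of the other tested genes of its chromosome. Hdac4, Hdac7 and Hdac6 lie above their boxes and Hdac8, at -1.38, below its box, while Hdac3, at 0.59, lies inside the box of chromosome 18.

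Of the partner genes, 110 tested members of 11 lists, 47 were called higher and 21 lower by edgeR, against the 24.3% and 25.8% of all tested genes. The closest relatives by activity, the 7 NAD-dependent sirtuins, gave no call in either direction: edgeR and DESeq2 each called 0. With the filter on low counts 0 had an unadjusted edgeR p under 0.05. Without the filter 1 of them did, and 0 were called.

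In each of 4 lists of corepressor complexes that carry class I enzymes, more genes were called higher than lower. Of all tested genes, edgeR called 24.3% higher and 25.8% lower. With 5 of 10 CoREST and 6 of 13 tested SIN3 genes called, both lists were near the 50.1% called over all tested genes. Ncor1, which encodes a scaffold that binds and activates HDAC3, was at 198 CPM in the control and at 284 and 269 CPM in the clones (log2 fold change 0.48, edgeR adjusted p = 3.66e-06). Among 13 NuRD subunits, which pair deacetylation with nucleosome remodelling, 6 were called higher and 3 lower. Mta2 (148 CPM against 208 and 211), the remodelling motor Chd4 (464 against 585 and 568) and Gatad2b (29.3 against 44.9 and 43.6) rose. Chd3 (68.7 CPM against 55.3 and 52.4) and Mta3 (39.5 against 30.02 and 29.6) fell.

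The histone chaperone Rbbp7, shared by NuRD and SIN3, had the largest fall among NuRD genes. It was at 706 CPM in the control and at 257 and 290 CPM in the clones, which differed by -1.37 on the log2 scale with an SE of 0.060 and an edgeR adjusted p of 3.2e-11. Its paralog Rbbp4, named here after its values were seen, was at 361 CPM against 372 and 360 CPM and passed no test (edgeR adjusted p = 0.782). Of 13 tested SIN3 genes 4 were called higher and 2 lower: Sap130 (73.1 CPM against 128 and 141), the scaffold Sin3a (107 against 157 and 148) and Ing1 (54.8 against 78.3 and 83.9) had the lowest p-values among those that rose, and Suds3 (173 against 143 and 139) and Sap30 (25.7 against 20.4 and 18.1) fell. Sap130 lies on chromosome 18, as Hdac3 does. Rbbp7 lies on the X chromosome, as Hdac6 and Hdac8 do, where the median log2 fold change was -0.22. The part of these chromosome differences in the changes of Sap130 and Rbbp7 was not tested. Of 10 CoREST genes 5 were called higher and 0 lower, among them Rcor2 (76.5 CPM against 111 and 112) and Hmg20b (72.6 against 89.4 and 83.7). Of the 3 mitotic deacetylase complex genes, Trerf1 (54.5 CPM against 75.4 and 82.4) and Elmsan1 (63.9 against 79.8 and 80.7) rose. DESeq2 called 3 higher and 1 lower of the NuRD genes, 4 and 1 of the SIN3 genes, 2 of the CoREST genes and 1 of the mitotic deacetylase complex genes. Over all genes it tested, DESeq2 called 10.3% higher and 10.1% lower.

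**Figure D4:**
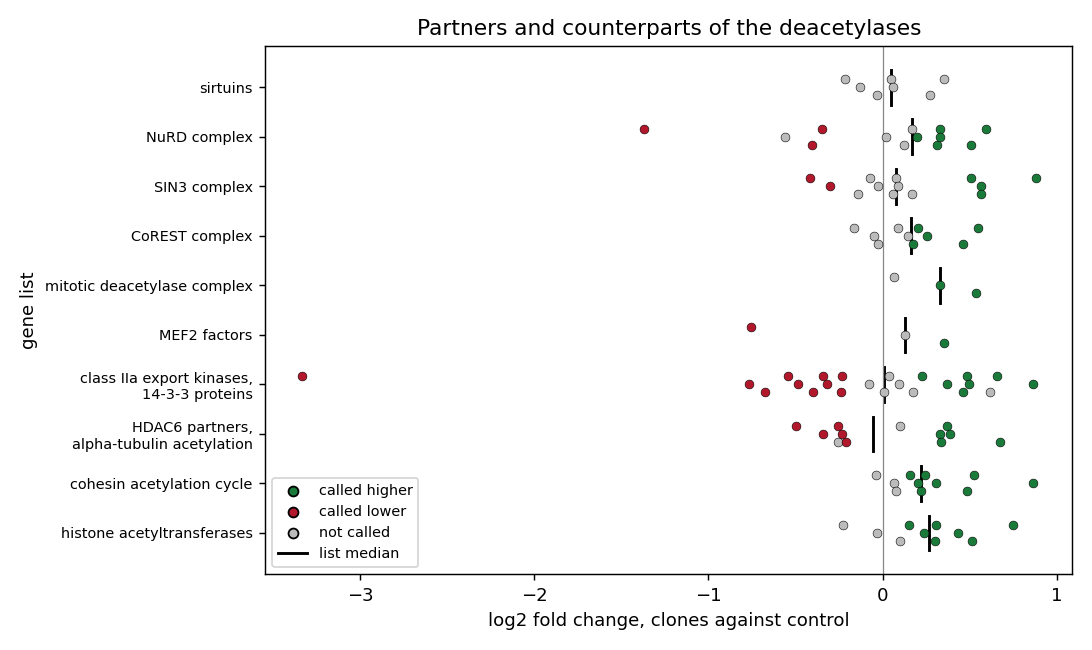
Log2 fold change of each tested gene in 10 of the partner lists, 1 row a list, in green where edgeR called the gene higher, red where lower and grey where neither, with a bar at the list's median. The sirtuin row holds no called gene, the cohesin and acetyltransferase rows hold called genes on the higher side only, and the kinase and 14-3-3 row reaches -3.33 at Camk2b.

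The partners of class IIa enzymes went both ways. Of the 3 tested MEF2 genes, Mef2a was higher (128 CPM against 163 and 163) and Mef2b lower (6.57 CPM against 3.74 and 4.05). Among 23 export kinases and 14-3-3 proteins edgeR called 7 higher and 10 lower, against 24.3% and 25.8% of all tested genes. The kinases Camk1 (24.4 CPM against 44.2 and 44.7), Mark2 (103 against 145 and 143) and Prkd3 (13.98 against 23.1 and 21.0) rose. The brain-rich kinase subunit Camk2b had the largest change of the list, from 15.0 CPM in the control to 1.34 and 1.62 CPM in the clones. The 14-3-3 genes Ywhaz (658 CPM against 406 and 418) and Ywhah (551 against 381 and 375) fell. With DESeq2 2 genes of this list were called higher and 7 lower, and in MEF2 1 and 0, against 10.3% and 10.1% of all its tested genes.

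Genes tied to HDAC6 were divided evenly, with 5 of 12 called higher and 5 lower by edgeR. All tested genes were also divided about evenly, with 24.3% called higher and 25.8% lower. The autophagy receptor Sqstm1 (373 CPM against 481 and 482) and the actin regulator Cttn, a substrate of HDAC6 (378 against 480 and 475), rose. Bag3 (256 CPM against 205 and 199) and Vcp (604 against 517 and 495), which act in the handling of misfolded and ubiquitinated proteins, fell. Among the alpha-tubulins Tuba1b was at 519 CPM against 791 and 861 CPM and Tuba1a at 870 against 614 and 619 CPM. Near-identical tubulin genes can share reads, so these values are uncertain.

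In the cohesin cycle, HDAC8 removes the acetyl mark that the ESCO enzymes set. Of the 11 genes of this cycle edgeR called 8 higher and 0 lower, against 24.3% and 25.8% of all tested genes. Hdac8 was called lower by edgeR, while with DESeq2 it had an adjusted p of 0.0636. By p-value Stag1 (71.7 CPM against 128 and 133), the acetyltransferase Esco2 (35.5 against 50.5 and 51.8) and the release factor Wapl (136 against 166 and 170) led the list. Of 10 histone acetyltransferases, the enzymes that oppose the deacetylases, 7 were called higher and 0 lower, led by p-value by Kat6a (124 CPM against 178 and 175), Crebbp (62.2 against 83.1 and 84.9) and Kat6b (11.0 against 18.4 and 18.5). With DESeq2, which called 10.3% of all its tested genes higher and 10.1% lower, these counts of higher genes were 1 for the cohesin cycle, a share near that background, 2 for the acetyltransferases and 4 for HDAC6 partners, with 4 of the latter lower. The median log2 fold change was 0.22 over the cohesin list and 0.27 over the acetyltransferases, against 0.0022 over all tested genes.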

How the data were processed

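Polyadenylated RNA of 3 NSC-34 libraries was made into stranded libraries, per the labels' protocols. Raw counts per gene came from the authors' run of STAR with its gene counting option, per the file headers (STAR 2.5, Gencode M16, Ensembl 91, GRCm38/mm10). Tools named in the submitters' processing notes are STAR 2.5.3, bcl2fastq and DESeq2. Deposited RPM values were scaled by the authors to mapped reads and were not tested. The authors' deposited table gives a log2 fold change, its standard error (stored as a score), a p-value and an adjusted p-value from DESeq2. The strand column taken was not given in the sources used here.

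Counts were filtered with filterByExpr, scaled by TMM and tested with edgeR 4.0.16 (quasi-likelihood, legacy option off) in R 4.3.3, two-sided; DESeq2 1.42.0 and limma 3.58.1 were alternatives. The method was checked on data with known answers. Those data were simulated with the same spread in control and clones, so the check does not cover untreated cells that vary differently. Single-clone ratios used a prior count of 1, and their intervals, like those of read ratios and shares, are exact binomial and cover counting error only. Pairs for read ratios were picked by hand, and most set a member called higher over one called lower. Coordinates and lengths came from Gencode M21 (GRCm38). Members and lists were chosen with earlier results of these data known. Named genes were all members and Hdac9, the 3 called partners of lowest p per list and direction, and the 2 most abundant genes of each marker list; some of these are not reported here. Chat, Mnx1, Isl1, Cx3cr1, Aif1, Ptprc, Gm10093, Rbbp4 and the genes overlapping members were named outside this rule, after their values were seen.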

Additional observations from a re-analysis of the deposited data

How the results depend on the processing

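All 8 called members kept their call and direction with RLE size factors, a filter at a mean CPM of at least 1, the legacy fit, the robust fit and limma-voom. With DESeq2, 3 members were called higher and 1 lower (1402 and 1369 of all genes, 22 and 13 partner genes), and in the authors' deposited results 3 and 1 were (1392 and 1359 of all genes). DESeq2 lost Hdac5, Hdac6, Hdac8 and Hdac10, with adjusted p of 0.491, 0.506, 0.0636 and 0.45. Without the filter on low counts edgeR called 0 members higher and 0 lower, 0 and 0 partner genes, and 0 genes higher and 4 lower in all, although 7 of 10 members and 7087 of 22976 genes had an unadjusted p under 0.05. With the legacy fit and no filter, an alternative added after seeing the data, all of these counts were 0, with 8 of 10 members and 6560 genes under an unadjusted p of 0.05. The cause was not tested. The members' log2 fold changes kept their sign under all 8 alternative fits. Leaving out either clone leaves no residual degrees of freedom, so it gave values without a test and no counts of calls. The 8 called members kept their sign, with Hdac8 ranging from -1.81 to -1.05, while Hdac1 (-0.05 to 0.0068) and Hdac11 (-0.23 to 0.06) changed sign. No paired analysis was possible because the control has 1 library and shares fewer than 2 numbers with the clones. At 31 to 118 reads Hdac8 is the member most limited by depth.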
